A study of Mus musculus with 9 samples.

Results

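The 36 genes described here encode the cell division cycle: 14 regulators of its first gap phase (G1), 10 genes of DNA replication and nucleotide supply, and 12 genes of mitosis. They were chosen by name and function, and 34 of them are among the 13192 genes of the counts table: all 14 G1 regulators, all 10 replication genes and 10 mitotic genes. The mitotic genes Ccnb1 and Plk1 were not analysed here. The RNA is from cardiac muscle at the apex, in wild-type male mice of strain C57BL/6J, 12 weeks after adeno-associated virus (AAV) was put into the right gastrocnemius, a leg muscle, at 10 weeks of age and a dose of 1e+11 viral particles. The 4 AAV-Null libraries carry the control vector and the 5 AAV-Osm libraries the vector for oncostatin M, a cytokine of the interleukin-6 family. Every mouse thus had an AAV injection, and the virus went into skeletal muscle, not into the heart that was sequenced. The labels do not say outright that each library is a separate mouse, so the tests measure the spread between these 9 libraries.

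A resting cell is held out of the cycle by retinoblastoma-family proteins, which keep E2F transcription factors from switching on the genes of DNA synthesis. D-type cyclins with the kinases CDK4 and CDK6 inactivate these proteins, CDK inhibitors of the p21, p27 and p57 type oppose them, and the released E2F factors then raise the MCM helicase, PCNA and nucleotide enzymes. Genes of mitosis are switched on later, by the MuvB complex with the factors B-MYB and FOXM1, while in resting cells MuvB with p130 and E2F4, together called DREAM, represses them. Heart muscle cells of adult mice have largely left the cycle, and most dividing cells of the adult heart are endothelial cells, fibroblasts and leukocytes.

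Total counts were 11841106 to 30625134 per library. The lists of cardiomyocyte, endothelial, fibroblast, mural and macrophage markers, of 6 genes each, were all in the table, with 0 of these genes at 0 counts in any library. The cardiomyocyte markers summed to 52288 to 64637 TMM-scaled CPM, which puts the libraries on 1 common size, under AAV-Null and 49913 to 68005 under AAV-Osm. The labels name no promoter for the vector, and the delivered gene, Osm, was itself not analysed here, which leaves the labels unchecked.

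None of the cell cycle genes changed past the threshold. In edgeR's quasi-likelihood test over all genes, 0 of 34 had an adjusted p under 0.05 (lowest adjusted p = 0.559, Cdkn1c), where 0.121% of all genes tested did (0.0834% higher and 0.0379% lower). At an unadjusted p under 0.05 there were 6 of the 34 (17.6%), 1 with higher and 5 with lower values in AAV-Osm, against 5.97% of all genes (2.89% higher and 3.09% lower). These were the G1 genes Ccnd1, Ccnd3 and Cdkn1c (lower) and Rbl2 (higher) and the mitotic genes Top2a and Tpx2 (lower). This share moved with the libraries and the tool. The members numbered 3 (8.82%) without AAV-Null 3, without AAV-Null 4 and without AAV-Osm 1, where 6.01%, 5.36% and 4.75% of all genes had such a p, and 8 (23.5%, against 6.07%) without AAV-Osm 3. Without both AAV-Null 4 and AAV-Osm 5 they were 3 (8.82%) against 8.83% of all genes, and without both AAV-Null 3 and AAV-Null 4 they were 3 against 9.99%. AAV-Null 4 and AAV-Osm 5 were the extreme libraries of Ccnd1, Cdkn1c, Rbl2 and Top2a. AAV-Null 3 or AAV-Null 4 was the highest library of each of the 5 members with lower values. Leaving out these pairs thus narrows the differences by itself, and the 2 fits cannot decide whether there is an excess. In limma-voom with quality weights the 6 members stood below the share of all genes, 25.2%. Whether the 3 roles differed from each other was not tested. The median log2 fold change (AAV-Osm over AAV-Null) was -0.06 for the G1 regulators, 0.01 for the replication genes and -0.48 for the mitotic genes, where it was 0.0092 over all genes. A negative value was seen in 7 of 14, 5 of 10 and 10 of 10 of them in turn, and in 48.1% of all genes. Of the mitotic genes 3 were in the table through AAV-Null alone, as described with them, and the filter thus bears on their sign. In whole-tissue RNA fewer cells of a type and less RNA per cell cannot be told apart.

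**Figure D1:**
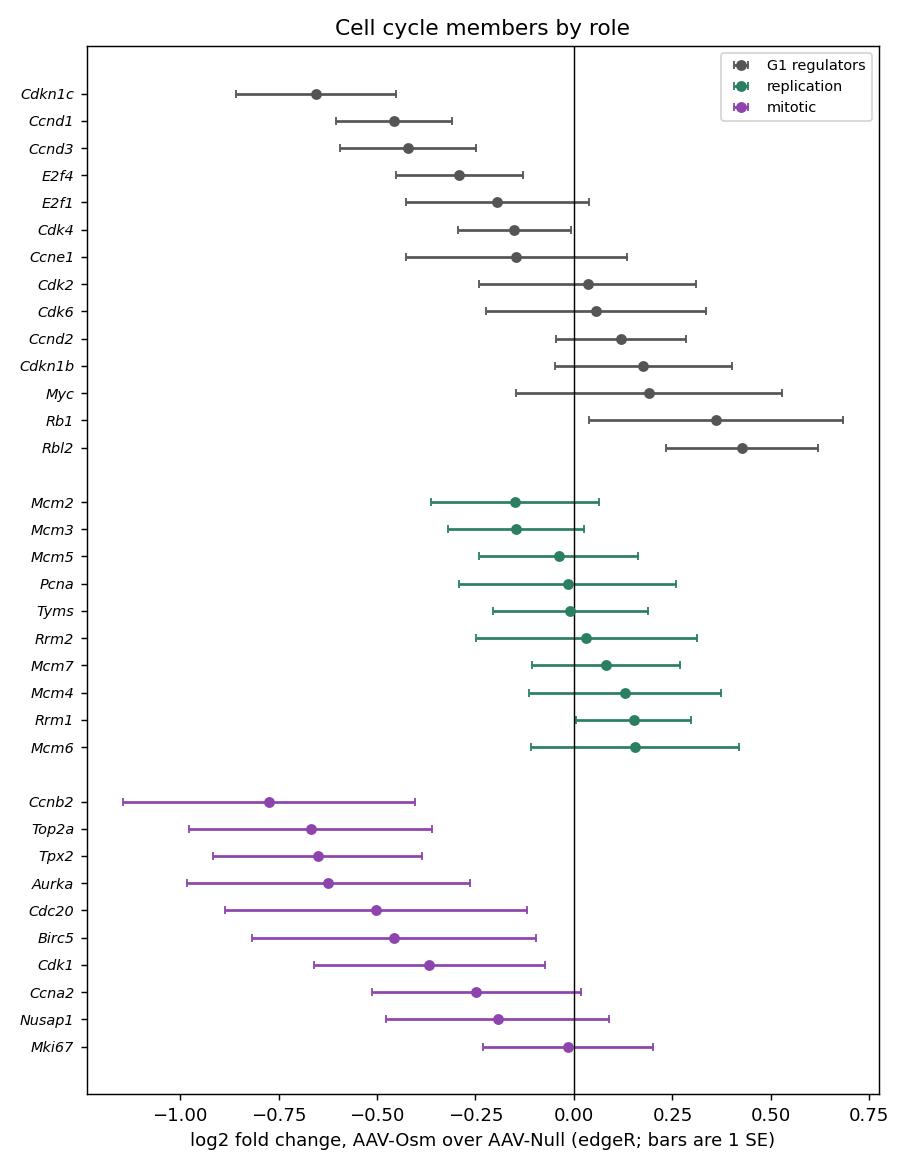
Log2 fold change of AAV-Osm over AAV-Null (horizontal axis) for the 34 members by role, with 1 standard error (SE) from edgeR. The G1 regulators lie on both sides of 0, the replication genes lie between -0.15 and 0.15, and all 10 mitotic genes have a value below 0; no member passed the adjusted threshold.

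The members covered a wide range of levels. Per kilobase of exon, the scale used here to set genes side by side, the mean over the 9 libraries ran from 0.198 CPM per kilobase for Birc5 to 44.3 ± 7.66 (SD, n = 9) for Ccnd2, the gene of cyclin D2. Its neighbours in the order were Cdk4 at 42.0 ± 5.97, Ccnd1 at 34.3 ± 7.74 and Ccnd3 at 33.6 ± 7.76 CPM per kilobase, and the largest step between neighbours among these 4, from Cdk4 to Ccnd1, was 1.30 of the SD of Cdk4. The next level down held Cdkn1c (13.98), Pcna (12.3), E2f4 (11.0) and Cdkn1b (10.8 CPM per kilobase), with Cdkn1c 2.53 SDs of Ccnd3 below it. The median level was 7.47 CPM per kilobase for the G1 regulators, 1.52 for the replication genes and 0.411 for the mitotic genes, against 4.40 over all genes tested. The mitotic genes reached 1.22 CPM per kilobase at most (Cdc20).

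**Figure D2:**
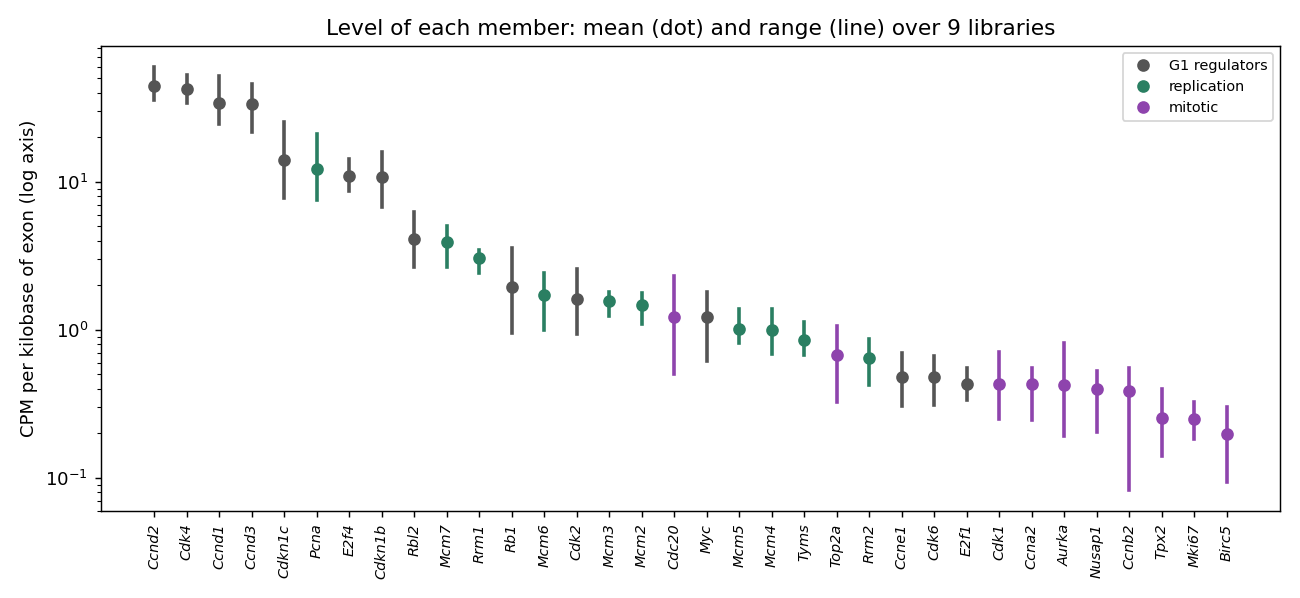
Level of each of the 34 members in CPM per kilobase of exon (log axis), ordered by the mean over the 9 libraries (dot), with the line from the lowest to the highest library. Cyclin D genes and Cdk4 lead at 33.6 to 44.3 CPM per kilobase and the mitotic genes lie toward the lower end, from 1.22 down to 0.198. Several G1 and replication genes lie among them, such as Myc (1.21), Mcm5 (1.02) and E2f1 (0.433).

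Among the G1 regulators, the D-type cyclins stood in other proportions to each other under AAV-Osm, without a call for any of the 3. Ccnd1 encodes cyclin D1 (chromosome 7, 144929931 to 144939925, minus strand, mm10). Its level was 147, 137, 132 and 196 CPM in AAV-Null 1 to 4 and 111, 115, 121, 119 and 92.7 CPM under AAV-Osm 1 to 5. Every AAV-Osm library lay below every AAV-Null library, which held for 1 of the 34 members (2.94%) and for 1.23% of all genes. No other member had groups apart in either direction, where 2.28% of all genes did. The means were 153 ± 29.3 CPM (SD, n = 4) and 112 ± 11.2 CPM (SD, n = 5), and edgeR gave a log2 fold change of -0.46 with an SE of 0.15 (adjusted p = 0.579), so the difference did not pass. With AAV-Null 4 and AAV-Osm 5 both left out, the log2 fold change was -0.26. These were its highest and lowest libraries, so leaving them out narrows the difference by itself. In GENCODE M21 longer forms of a gene on the other strand, LTO1, cover 23.4% of the Ccnd1 exon bases. The counts table lists a gene at that place as Oraov1, with coordinates that end short of Ccnd1, and no source used here tells whether the counting used strand. Oraov1 had a log2 fold change of -0.14 (SE 0.13).

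Ccnd2 (6, 127125709 to 127151048, minus strand) had 239, 248, 206 and 283 CPM under AAV-Null and 212, 272, 282, 344 and 216 CPM under AAV-Osm. These groups overlapped, and edgeR gave a log2 fold change of 0.12 with an SE of 0.16 (adjusted p = 0.972). Ccnd3, the gene of cyclin D3 (17, 47505051 to 47599688, plus strand), had 85.7, 89.1, 75.5 and 103 CPM under AAV-Null and 49.3, 57.6, 74.5, 88.5 and 60.3 CPM under AAV-Osm. In 4 of the 5 AAV-Osm libraries it lay below all AAV-Null libraries, with AAV-Osm 4 inside their range (edgeR log2 fold change -0.42 with SE 0.17, adjusted p = 0.773).

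The 3 cyclins were also set against each other within a library, where scaling between libraries has no part. Cyclin D2 made up 35.0, 36.3, 34.4 and 33.5% of the summed D-type cyclin CPM per kilobase in AAV-Null 1 to 4. In AAV-Osm 1 to 5 it made up 41.9, 45.8, 43.0, 45.8 and 42.3%. The shares did not overlap, and their means were 34.8% ± 1.19 (SD, n = 4) and 43.7% ± 1.92 (SD, n = 5). The share of Ccnd3 was 31.2 to 33.3% in AAV-Null and 24.8 to 30.1% in AAV-Osm, also without overlap, while that of Ccnd1 overlapped (30.4 to 35.3% and 24.1 to 33.3%). The ratio of Ccnd2 to Ccnd3 was 1.07 to 1.09 under AAV-Null and 1.40 to 1.85 under AAV-Osm, and that of Ccnd2 to Ccnd1 was 0.948 to 1.19 and 1.26 to 1.90. These shares show that the 3 genes differed unequally between the groups, not which of them stayed level. The gene families so compared were chosen after the members' levels had been seen, and no test was made of the shares. In the other families compared (Cdk4 with Cdk6, Cdkn1b with Cdkn1c, and Rb1 with Rbl2) the shares overlapped between the groups. How often such shares lie apart among all genes was not counted. The cell sources of the 3 transcripts were not measured. Summed fibroblast markers were 989 to 1731 CPM under AAV-Null and 790 to 1505 CPM under AAV-Osm, endothelial markers 410 to 457 and 363 to 501 CPM, and the part of cell makeup in these shares was not tested.

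**Figure D3:**
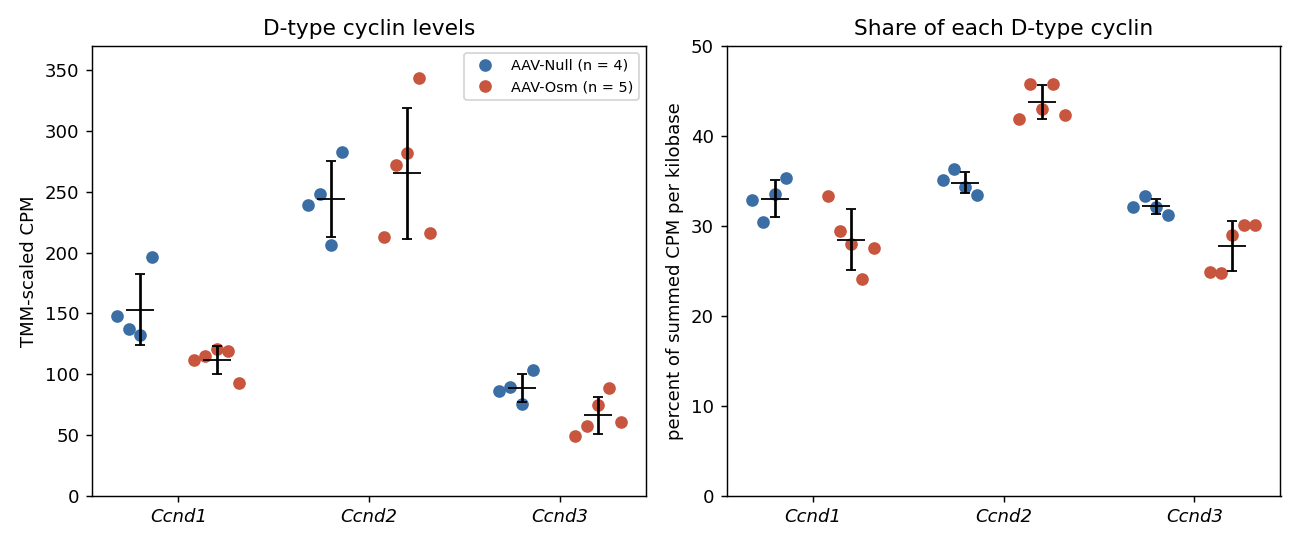
Left, TMM-scaled CPM of Ccnd1, Ccnd2 and Ccnd3 in each library; right, the percent each makes up of their summed CPM per kilobase. Points are libraries, bars are means with SD, n = 4 AAV-Null and n = 5 AAV-Osm; the Ccnd2 share is 33.5 to 36.3% in AAV-Null and 41.9 to 45.8% in AAV-Osm.

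The kinases that D-type cyclins bind were very unequal in level, Cdk4 standing 53.8 to 136 times above Cdk6 per kilobase. Cdk4 had 53.5 to 71.1 CPM under AAV-Null and 45.6 to 65.7 CPM under AAV-Osm (log2 fold change -0.15, SE 0.14), and in GENCODE M21, though not by the deposited coordinates, it shares 19.7% of its exon bases with Tspan31 on the other strand. Cdk6 was at 0.888 to 1.65 and 0.769 to 1.55 CPM. Cdk2, the partner of cyclin E in the step into replication, was at 2.30 to 4.66 and 2.94 to 6.31 CPM. Ccne1, the gene of cyclin E1, was at 0.602 to 1.37 and 0.807 to 0.996 CPM. All of these ranges overlapped between the groups, and the log2 fold changes of Cdk6, Cdk2 and Ccne1 were 0.06, 0.04 and -0.15 (SE 0.28 each).

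Of the 2 KIP-type CDK inhibitors among the members, only the imprinted gene Cdkn1c, which encodes p57, had an unadjusted p under 0.05; whether the 2 genes differed from each other was not tested. Cdkn1c (7, 143458339 to 143461050, minus strand) had 31.8, 29.6, 25.7 and 49.1 CPM in AAV-Null 1 to 4. In AAV-Osm 1 to 5 it had 20.3, 24.6, 22.3, 25.9 and 15.1 CPM. A single pair of libraries overlapped, AAV-Null 3 at 25.7 and AAV-Osm 4 at 25.9 CPM. In edgeR the log2 fold change was -0.66 with an SE of 0.20 (adjusted p = 0.559) and it was -0.32 without both of AAV-Null 4 and AAV-Osm 5. These were the highest and lowest libraries of Cdkn1c, so leaving them out narrows the difference by itself. In GENCODE M21 an antisense transcript, Gm44732, covers 30.7% of its exon bases. Cdkn1b, which encodes p27, had 29.7, 29.1, 22.0 and 16.3 CPM under AAV-Null and 30.8, 23.8, 17.8, 26.6 and 38.0 CPM under AAV-Osm (log2 fold change 0.18, SE 0.22). Its lowest library was AAV-Null 4 and its highest AAV-Osm 5, the reverse of Cdkn1c. The ratio of Cdkn1c to Cdkn1b per kilobase accordingly ran from 1.26 to 3.72 in AAV-Null and from 0.493 to 1.55 in AAV-Osm.

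The remaining inhibitor of that family, Cdkn1a, encodes p21 and also belongs to the p53 response. It was the 1 gene past the threshold among 127 other cell cycle genes tested, where 0.121% of all genes passed. It had 59.7, 69.2, 46.3 and 64.3 CPM under AAV-Null and fell to 21.6, 19.6, 26.0, 37.4 and 23.7 CPM under AAV-Osm (edgeR log2 fold change -1.23 with SE 0.19, adjusted p = 0.0331). The groups did not overlap, but the call was lost when any of AAV-Null 1, 2 or 4 or AAV-Osm 1, 2, 3 or 5 was left out, and when AAV-Null 4 and AAV-Osm 5 were left out together.

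The retinoblastoma-family genes had higher means in AAV-Osm without passing. Rbl2, which encodes p130, the pocket protein of the DREAM complex in resting cells (8, 91070057 to 91123844, plus strand), had 19.3, 19.7, 16.1 and 13.0 CPM under AAV-Null and 23.2, 17.5, 17.7, 25.2 and 30.8 CPM under AAV-Osm. Its AAV-Osm 1, 4 and 5 libraries lay above every AAV-Null library (edgeR log2 fold change 0.43 with SE 0.19, adjusted p = 0.812). Rb1, the retinoblastoma gene, had 10.2, 10.6, 5.92 and 4.40 CPM under AAV-Null and 11.7, 7.46, 5.64, 8.36 and 16.4 CPM under AAV-Osm (log2 fold change 0.36, SE 0.32). AAV-Null 4 was the lowest and AAV-Osm 5 the highest library for both genes. With these libraries left out the log2 fold change was 0.19 for Rbl2 and -0.09 for Rb1, so the direction of Rb1 turned. Leaving out the extremes of both genes lowers these values by itself. E2f4, the repressing partner of p130, had 28.5, 28.0, 22.7 and 18.2 CPM under AAV-Null and 19.5, 17.4, 17.8, 21.3 and 23.5 CPM under AAV-Osm (edgeR log2 fold change -0.29 with SE 0.16, adjusted p = 0.888), and -0.48 without AAV-Null 4 and AAV-Osm 5. E2f1, an activating E2F gene, was at 1.11 to 1.71 and 1.04 to 1.41 CPM, so that E2f4 stood 17.0 to 39.2 times above it per kilobase. Myc, a growth regulator that acts upstream of the D-type cyclins, was at 1.47 to 4.08 and 1.91 to 4.32 CPM (log2 fold change 0.19, SE 0.34).

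**Figure D4:**
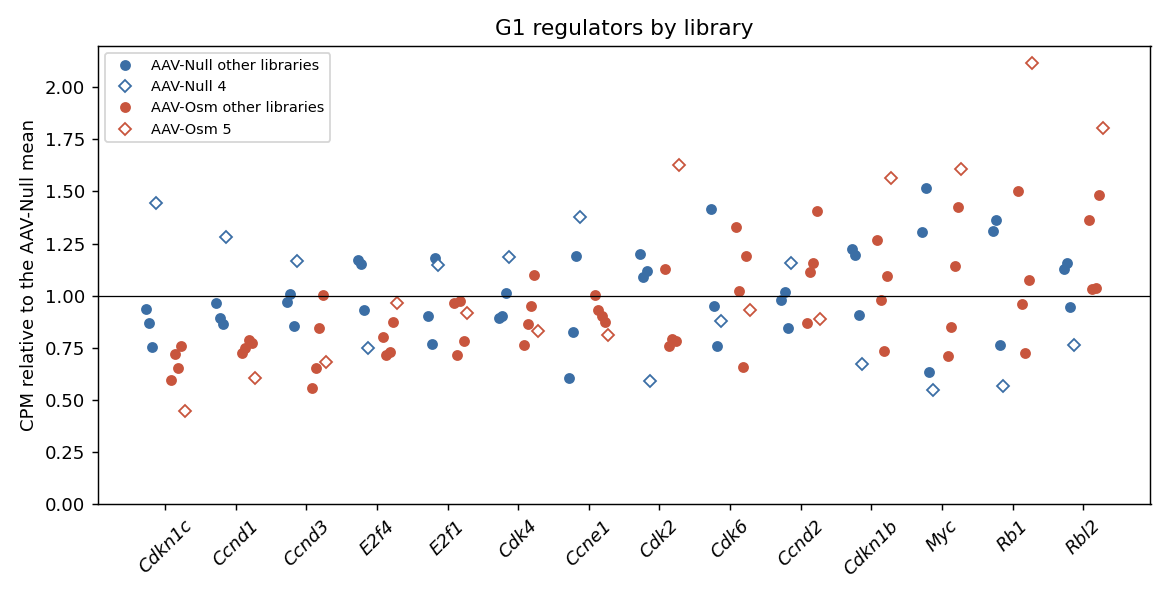
CPM of the 14 G1 regulators in each library, divided by the mean of the 4 AAV-Null libraries (line at 1) and ordered by log2 fold change. Open diamonds mark AAV-Null 4 and AAV-Osm 5, which are the extremes for Cdkn1c and Ccnd1 at the left (49.1 and 15.1 CPM for Cdkn1c) and, the other way round, for Rb1 and Rbl2 at the right (13.0 and 30.8 CPM for Rbl2).

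AAV-Null 4 and AAV-Osm 5 set many of these extremes. Of the 14 G1 regulators AAV-Null 4 was the highest library for 5 and the lowest for 5, and AAV-Osm 5 the highest for 5 and the lowest for 2. The same libraries were at the ends of their groups in summed markers of the heart's mesothelial lining, with AAV-Null 4 at 135 CPM against 41.6 to 51.9 in AAV-Null 1 to 3, and AAV-Osm 5 at 5.94 CPM against 23.2 to 45.2 in AAV-Osm 1 to 4. AAV-Null 4 and AAV-Osm 5 were at the ends of their groups in cardiomyocyte (64637 and 49913 CPM), endothelial (410 and 501 CPM) and mural markers (239 and 314 CPM) too. In fibroblast markers AAV-Null 4 was the highest library at 1731 CPM, while AAV-Osm 5 lay inside its group at 1003 CPM. AAV-Null 4 was also highest in macrophage markers (442 CPM, the other AAV-Null libraries 219 to 279 and AAV-Osm 229 to 294 CPM). The part of these markers in the G1 values was not tested.

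The replication genes lay close together in the 2 groups. MCM2 to MCM7 form the ring that is loaded on origins in G1 and unwinds DNA in S phase. Mcm7 was the highest of the 6 genes, at 6.37, 8.36, 9.54 and 12.1 CPM under AAV-Null and 9.81, 9.92, 11.0, 7.75 and 9.59 CPM under AAV-Osm (log2 fold change 0.08, SE 0.19). The others were at 2.46 to 6.98 CPM in every library. Their log2 fold changes were -0.15 for Mcm2 (SE 0.21), -0.15 for Mcm3 (SE 0.17), 0.13 for Mcm4 (SE 0.24), -0.04 for Mcm5 (SE 0.20) and 0.15 for Mcm6 (SE 0.26). The 6 subunit genes thus split evenly in sign, and their groups overlapped. A processed pseudogene matches 72.8% of the longest Mcm7 transcript at 97.7% identity, so reads shared with it leave the Mcm7 level uncertain.

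Pcna, the sliding clamp of DNA polymerases, was the most abundant replication gene and the most uneven. It had 15.3, 17.6, 18.7 and 10.6 CPM under AAV-Null and 16.9, 10.8, 9.49, 13.1 and 26.4 CPM under AAV-Osm (log2 fold change -0.02, SE 0.28). Its extremes were both AAV-Osm libraries, and a pseudogene, Pcna-ps2, matches 51.4% of its transcript at 99.2% identity. Rrm1 and Rrm2 encode the large and small subunits of ribonucleotide reductase, and Tyms encodes thymidylate synthase. Rrm1 had 9.68 to 13.6 CPM under AAV-Null and 11.7 to 13.8 CPM under AAV-Osm (log2 fold change 0.15, SE 0.15). Rrm2, whose protein is made mainly in S phase, was far lower at 1.08 to 1.85 and 0.926 to 1.90 CPM (0.03, SE 0.28), and Tyms was at 2.91 to 3.62 and 2.56 to 4.29 CPM (-0.01, SE 0.20). Of the 10 replication genes, 0 had an unadjusted p under 0.05 in edgeR with all libraries. Without both AAV-Null 4 and AAV-Osm 5, where the highest library of Pcna is left out, Pcna alone did, with a log2 fold change of -0.45 (adjusted p = 0.546), and with quality weights in limma-voom Rrm1 alone did. Their SEs were 0.15 to 0.28 on the log2 scale, so differences of that size, and larger ones too, could go undetected here. In simulated counts the same test recovered only 11 of 50 genes changed 1.5-fold.

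The mitotic genes were near the lower limit of the table, at 0.128 to 5.53 CPM and 2 to 149 counts per gene and library. Their summed level was 16.5, 13.2, 20.1 and 20.2 CPM in AAV-Null 1 to 4 and 13.4, 11.1, 16.7, 14.2 and 9.92 CPM under AAV-Osm 1 to 5. The sums overlapped between the groups. For all 10 genes the highest library was an AAV-Null library and the lowest an AAV-Osm library. Among them Ccnb2, Birc5 and Aurka were above the lower limit of the table (0.5 CPM) in fewer than 4 AAV-Osm libraries, so they entered it through AAV-Null, the group where they were high. The same pattern held for the other 7, each with its highest value in AAV-Null 3 or AAV-Null 4, where 37.9% of all genes that pass the limit in at least 4 AAV-Osm libraries were highest in AAV-Null and 57.0% lowest in AAV-Osm.

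Top2a, which encodes the topoisomerase that untangles chromosomes (11, 98992947 to 99024189, minus strand), had 4.86, 2.39, 4.90 and 5.53 CPM under AAV-Null and 2.83, 1.74, 3.72, 4.09 and 1.71 CPM under AAV-Osm. All but AAV-Null 2 lay above every AAV-Osm library (edgeR log2 fold change -0.67 with SE 0.31, adjusted p = 0.832). Tpx2, a spindle assembly factor that activates Aurora A (2, 152847964 to 152895321, plus strand), had 1.05, 1.15, 1.74 and 1.57 CPM under AAV-Null and 0.917, 0.872, 1.15, 0.871 and 0.617 CPM under AAV-Osm. Only AAV-Osm 3 reached into the AAV-Null range (edgeR log2 fold change -0.65 with SE 0.27, adjusted p = 0.773). Ccnb2, the gene of cyclin B2 (9, 70407689 to 70421554, minus strand), had 0.852, 0.824, 0.691 and 0.734 CPM under AAV-Null and 0.478, 0.327, 0.128, 0.784 and 0.570 CPM under AAV-Osm. Its edgeR log2 fold change of -0.77 (adjusted p = 0.852, SE 0.37) was the lowest among the members, and it rests on 2 to 21 counts per library.

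Mki67, the gene of the proliferation marker Ki-67 (7, 135689788 to 135716379, minus strand), gave no such difference. It had 2.06, 2.35, 3.29 and 2.35 CPM under AAV-Null and 2.71, 2.40, 2.95, 2.61 and 1.85 CPM under AAV-Osm. The ranges lay almost on top of each other, and edgeR gave a log2 fold change of -0.01 with an SE of 0.22 (adjusted p = 0.999). Whether Mki67 differed from Top2a in its response was not tested. The kinase genes Cdk1, which drives entry into mitosis, and Aurka, which encodes Aurora A, had log2 fold changes of -0.37 (SE 0.29) and -0.62 (SE 0.36). Single libraries moved these values, to -0.10 for Cdk1 without AAV-Null 3 and to -0.36 for Aurka without AAV-Null 1. Cdc20, an activator of the anaphase-promoting complex, had 1.65 to 4.11 CPM under AAV-Null and 0.902 to 3.46 CPM under AAV-Osm (-0.50, SE 0.38, and -0.20 without AAV-Null 4). Birc5, which encodes survivin, was at -0.46 (SE 0.36), Ccna2, the gene of cyclin A2, at -0.25 (SE 0.26) and Nusap1, a spindle-associated protein gene, at -0.19 (SE 0.28) on the log2 fold change scale.

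**Figure D5:**
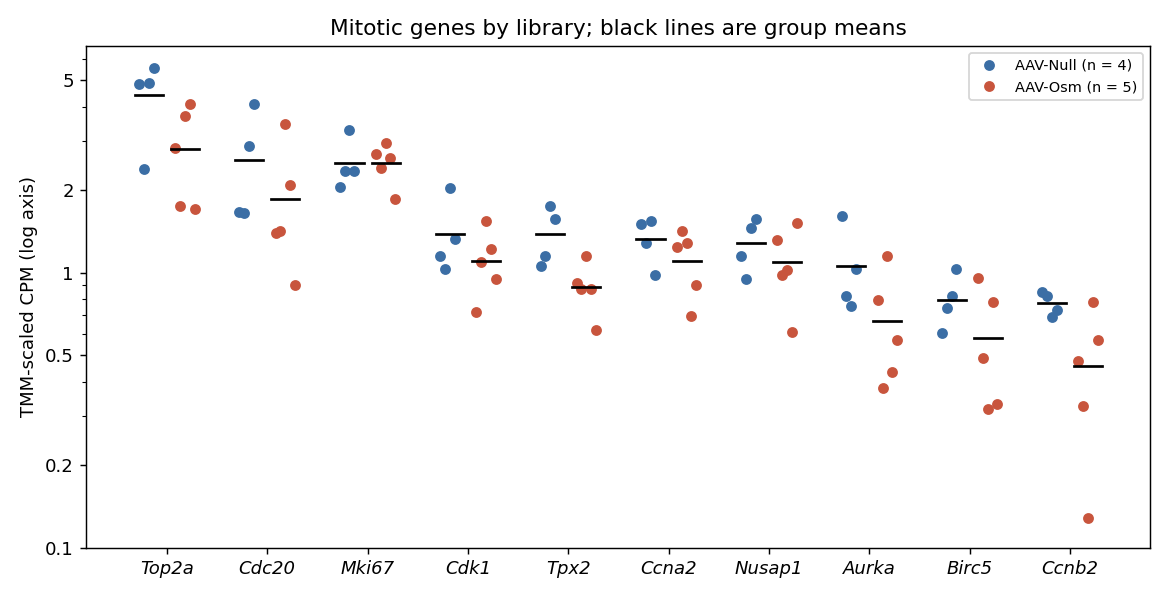
TMM-scaled CPM (log axis) of the 10 mitotic genes in each library, ordered by the AAV-Null mean; points are libraries (4 AAV-Null, 5 AAV-Osm) and black lines are group means. The AAV-Null mean lies above the AAV-Osm mean for each gene, by the least for Mki67 (log2 fold change -0.01), and the points overlap throughout.

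The way the table was made bears on these counts. Every listed gene had more than 0.5 CPM in at least 4 libraries, before TMM scaling. Ccnb2 and Birc5 passed that level in 4 AAV-Null and 2 AAV-Osm libraries and Aurka in 4 and 3, so these 3 genes were in the table through AAV-Null. All 14 G1 regulators, all 10 replication genes and the other 7 mitotic genes passed it in all 9 libraries. The median over those 7 mitotic genes was -0.37. With AAV-Null 3 and AAV-Null 4 both left out, the 10 mitotic genes had a median of -0.26 and 7 negative values, Cdc20, Nusap1 and Mki67 having positive ones. Each mitotic gene that passed in all 9 libraries was highest in AAV-Null 3 or AAV-Null 4, so leaving them out narrows the difference by itself. Without both AAV-Null 4 and AAV-Osm 5 the median was -0.32 with 9 negative values. AAV-Null 3 and AAV-Null 4 were also the libraries highest in summed liver-type markers (143 and 72.5 CPM, against 2.62 to 47.0 CPM in the other 7). Their part, and that of the macrophage and mesothelial markers given above, was not tested. Neutrophil markers (3 of 5 in the table) summed to 6.07 to 12.9 CPM under AAV-Null and 5.0 to 9.05 CPM under AAV-Osm, and lymphocyte markers (3 of 6) to 2.45 to 3.26 and 2.91 to 5.22 CPM.

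The promoters of the members differ by role in the short words that cell cycle regulators are known to use. RefSeq promoters on GRCm38.p6 (250 bases before to 50 after the start of the gene) were found for 27 of the 36 members, and Ccnd1, Ccnd2, Cdkn1c, Rb1, E2f4, Myc, Mcm4, Ccna2 and Tpx2 had no entry; Ccnd3 and Mcm7 had 2 promoters each. The CHR, the element bound by DREAM and MuvB, was searched as TTTGAA, the CCAAT box of the factor NF-Y as CCAAT, and E2F sites as TTCCCGC or else as TTGGCGC or else as TTCGCGC, each on both strands. The 10 mitotic promoters are not those of the 10 mitotic genes tested. They include Ccnb1 and Plk1, whose RNA was not analysed here, and lack Ccna2 and Tpx2. The CHR word was found in 7 of 10 mitotic promoters (70.0%), with Plk1 among the 7 and Ccnb1 not. It was found in 1 of 10 replication promoters (10.0%) and 1 of 9 G1 promoters (11.1%), against 17.9% of all 32851 promoters. CCAAT was found in 8 of the 10 mitotic, 9 of the 10 replication and 3 of the 9 G1 promoters, against 37.4% of all. An E2F word was found in 3, 6 and 1 of these in turn, against 8.07% of all. All 7 mitotic promoters with the CHR word also held CCAAT, a pairing found in 6.95% of all promoters. The stretches below are the 150 bases before the start, 5′ to 3′ on the gene's strand, with these words in capitals in either orientation, for 5 mitotic genes (Top2a with the largest difference among those with an unadjusted p under 0.05, Ccnb2 with the lowest log2 fold change, Mki67 with the smallest difference, Cdc20 and Cdk1) and 2 replication genes for contrast.
Top2a, chr11:99024190-99024339, minus strand: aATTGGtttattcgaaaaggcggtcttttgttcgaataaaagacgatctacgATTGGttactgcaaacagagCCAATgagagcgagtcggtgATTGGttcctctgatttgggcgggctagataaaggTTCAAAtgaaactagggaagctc
Ccnb2, chr9:70421555-70421704, minus strand: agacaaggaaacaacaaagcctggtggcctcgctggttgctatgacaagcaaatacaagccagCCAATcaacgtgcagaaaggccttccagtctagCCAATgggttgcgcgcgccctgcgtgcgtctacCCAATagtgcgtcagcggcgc
Mki67, chr7:135716380-135716529, minus strand: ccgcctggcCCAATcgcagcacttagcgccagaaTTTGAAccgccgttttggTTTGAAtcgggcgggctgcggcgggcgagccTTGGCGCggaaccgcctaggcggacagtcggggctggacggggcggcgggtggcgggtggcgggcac
Cdc20, chr4:118437344-118437493, minus strand: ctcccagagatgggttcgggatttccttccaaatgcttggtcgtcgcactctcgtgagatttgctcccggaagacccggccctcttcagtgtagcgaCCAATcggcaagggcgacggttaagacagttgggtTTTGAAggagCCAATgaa
Cdk1, chr10:69352913-69353062, minus strand: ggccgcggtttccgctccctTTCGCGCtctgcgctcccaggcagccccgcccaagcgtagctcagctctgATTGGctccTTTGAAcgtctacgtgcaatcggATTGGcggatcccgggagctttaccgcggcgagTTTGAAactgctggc
Mcm6, chr1:128359706-128359855, minus strand: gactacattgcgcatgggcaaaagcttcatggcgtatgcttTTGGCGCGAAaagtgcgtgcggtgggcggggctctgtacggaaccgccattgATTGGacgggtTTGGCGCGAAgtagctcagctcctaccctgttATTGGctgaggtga
Rrm1, chr7:102441545-102441694, plus strand: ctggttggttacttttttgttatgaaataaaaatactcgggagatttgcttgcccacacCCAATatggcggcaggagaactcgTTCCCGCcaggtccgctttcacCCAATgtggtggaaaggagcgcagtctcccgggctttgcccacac

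The CHR word begins 179 bases before the start in Top2a, outside the stretch shown, and 23 before it, read on the other strand. It begins 18 bases before the start in Cdc20, and 71 and 15 in Cdk1. Mki67 carries it at 116 and 98 bases before the start, and Ccnb2 at 167 bases before the start and at position 5 after it, both beyond the stretch shown, on either side of 3 CCAAT boxes at 87, 54 and 21 bases before the start. Mcm6 and Rrm1 hold E2F words and CCAAT but no CHR word. Mki67 and Top2a both carry the CHR word and CCAAT, the latter at 3 and 6 places. Mki67 also holds an E2F word, 67 bases before the start, which Top2a lacks. Their log2 fold changes were -0.01 and -0.67, and whether these words bear on them was not tested. A match of letters is a description of these windows and says nothing of binding in these hearts.

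Beyond the members, 127 of 147 other cell cycle genes listed by role were tested. Among 34 further G1 regulators 0 rose and 1 fell (Cdkn1a), where 0.0834% of all genes rose and 0.0379% fell. Their median log2 fold change was -0.03. The groups did not overlap for 2 of the 34 (5.88%, against 2.28% of all genes), Cdkn1a and Mxd1. Mxd1, which encodes a MAX partner that opposes MYC, had higher values in AAV-Osm, at 4.65 to 5.52 CPM under AAV-Null and 5.82 to 7.31 CPM under AAV-Osm (edgeR log2 fold change 0.31 with SE 0.15, adjusted p = 0.866). Among 48 further replication genes 0 passed, with a median of 0.02. The groups did not overlap for 1 of the 48 (2.08%), which is near the 2.28% of all genes. This was Uhrf1, a partner of the maintenance DNA methyltransferase, at 0.902 to 1.22 and 0.545 to 0.871 CPM (-0.55, SE 0.25, edgeR adjusted p = 0.802).

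Among 45 further mitotic genes 0 passed. At an unadjusted p under 0.05, 8 of the 45 (17.8%) had lower and 0 higher values in AAV-Osm, where 3.09% of all genes had lower values at that level, and their median was -0.13 with 27 negative values. The groups did not overlap, AAV-Osm being lower, for 4 of the 45 (8.89%), against 1.23% of all genes. Of the 45, 10 were above 0.5 CPM in fewer than 4 AAV-Osm libraries and thus tied to AAV-Null by the filter. Among the other 35, 4 (11.4%) had lower values at that p and 2 (5.71%) had groups that did not overlap, against 2.78% and 1.14% of all genes held to the same limit, and their median was -0.08. Cdca8, which encodes borealin, a partner of survivin, had 1.10, 1.19, 1.48 and 1.12 CPM under AAV-Null and 0.598, 0.272, 0.513, 0.261 and 0.760 CPM under AAV-Osm (edgeR log2 fold change -1.29 with SE 0.32, adjusted p = 0.364). Foxm1, the transcription factor of the mitotic programme, had 0.782 to 1.47 and 0.261 to 0.763 CPM (-0.93, SE 0.31, edgeR adjusted p = 0.622). Both were above 0.5 CPM in all 4 AAV-Null libraries but in only 2 and 3 AAV-Osm libraries, so they too were in the table through AAV-Null. Smc2, a condensin subunit gene at a higher level, had 9.43, 10.0, 8.45 and 9.15 CPM under AAV-Null and 6.38, 7.41, 6.79, 7.66 and 7.03 CPM under AAV-Osm (-0.40, SE 0.14, edgeR adjusted p = 0.648). Bub1b, a spindle checkpoint kinase gene, had 1.80, 1.28, 1.78 and 1.81 CPM under AAV-Null and 1.20, 1.20, 1.09, 1.22 and 1.14 CPM under AAV-Osm (-0.51, SE 0.21, edgeR adjusted p = 0.796).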

How the data were processed

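RNA-seq of the heart apex gave 9 libraries, 4 AAV-Null and 5 AAV-Osm, grouped by the treatment label. The submitters' processing notes name mm10 as the build and STAR 2.5.2b, Subread 1.5.1 and featureCounts as tools. Not given in the sources used here: annotation, strand setting, and what was done with reads that match several places. The authors deposited raw counts per gene, with coordinates and summed exon length, for 13192 named genes; 4141 blank lines were left out. All 13192 had more than 0.5 CPM in at least 4 libraries, and rarer genes were not analysed here. The replicate numbers used here follow accession order and name libraries only. Libraries were compared in pairs by chi-square, using genes of 10 counts or more; its smallest value per degree of freedom was 6.52 (AAV-Null 1 with AAV-Null 2), so each was counted as its own sample.

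Counts were tested with edgeR 4.0.16 (R 4.3.3; TMM factors, robust quasi-likelihood F test, two-sided, group as the only term), with Benjamini-Hochberg adjustment over all 13192 genes and a threshold of 0.05. The filterByExpr step removed 0 genes. In simulated counts of this comparison, drawn for 13192 genes, the test recovered 11 of 50 genes changed 1.5-fold and 34 of 50 changed 2-fold. It recovered 48 of 50 changed 3-fold and 48 of 50 changed 4-fold, with 9 unchanged genes among 150 calls. The real counts gave 16 calls, so the adjusted threshold was easier to pass in the simulation and real recovery may be lower. The changed genes were drawn from the whole table, not from low-level genes such as the mitotic ones. CPM are scaled by TMM factors; CPM per kilobase divide by the deposited exon length. Total counts ran from 11841106 to 30625134 per library. The alternatives were other scaling factors, filters and dispersions, DESeq2 1.42.0, limma-voom (limma 3.58.1), and libraries left out. The alternative without a low-count filter repeats the reported fit, since filterByExpr removed 0 genes, and is no separate check. Exon overlaps and copies were taken from GENCODE M21 (GRCm38, the build of mm10), with copies at 95% identity or more over at least 200 bases, and promoters from RefSeq.

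The members, the lists and the libraries left out in pairs were chosen with earlier results of these data known, and no list was tested as a set. The text names all members, the other cell cycle genes past the threshold, and up to 4 per role with the smallest p among those whose groups did not overlap; Oraov1 and Tspan31 (shared exon bases) and Mycn fall outside this rule and were named after their values were seen.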

Additional observations from a re-analysis of the deposited data

Results flagged for a closer look

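Of 100 sets of 4 or 5 libraries examined, 2 held a library far from the rest of its group. This is no more than chance gives, about 1 in 20. Cdkn1c made up 78.8% of the summed Cdkn1b and Cdkn1c CPM per kilobase in AAV-Null 4, while the other 3 AAV-Null libraries were at 55.7 to 59.1%. Bub1b was at 1.28 CPM in AAV-Null 2 and at 1.78 to 1.81 CPM in the other AAV-Null libraries, so that AAV-Null 2 alone lies near the AAV-Osm values.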

How the results depend on the processing

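No paired analysis was possible because the labels give no replicate numbers that groups share. In all 21 fits (the one reported and 20 alternatives) 0 of the members tested passed. With at least 1 CPM required in at least 4 samples 30 were tested, Ccne1, Ccnb2, Birc5 and Aurka being dropped, and in every other fit all 34 were. The lowest adjusted p was 0.06 (E2f4, limma-voom with quality weights). Over all genes DESeq2 called 53 and limma-voom with quality weights 170, against 16; leaving out 1 library gave 4 to 11. Of the further cell cycle genes limma-voom with quality weights called 3 (Cdkn1a, Cdca8 and Mycn, the last a MYC paralog gene), and leaving out 1 library gave 0 to 1; without AAV-Null 4 and AAV-Osm 5 the 1 call was Mycn (log2 fold change -1.88, edgeR adjusted p = 0.0335). The median log2 fold change of the G1 regulators was 0.037 with at least 1 CPM required in at least 4 samples and -0.17 with quality weights. The first of these is a median without Ccne1, which that filter drops. It is the value of Cdk2, which was 0.035 in the reported fit, so the change came from the genes counted. The medians of the replication and mitotic genes moved by less than the spread between libraries. That spread, an SD within groups on the log2 scale, was 0.09 for the G1, 0.18 for the replication and 0.23 for the mitotic genes. The mitotic median still went from -0.48 to -0.26 without AAV-Null 3 and AAV-Null 4, and to -0.28 with quality weights. A sign turned in at least 1 alternative for 19 of 34 members, all uncalled. With quality weights the log2 fold changes were 0.20 (Ccne1), -0.29 (Cdk2), -0.081 (Cdk6), -0.16 (Cdkn1b), -0.17 (Rb1), -0.32 (Myc), 0.15 (Mcm5), -0.26 (Rrm2) and 0.11 (Mki67). Without AAV-Null 4 and AAV-Osm 5 they were 0.068 (Ccne1), -0.38 (Cdk2), -0.12 (Cdkn1b), -0.087 (Rb1), -0.18 (Myc), 0.046 (Tyms), -0.21 (Rrm2) and 0.046 (Mki67). Leaving out both AAV-Null 3 and AAV-Null 4 gave 0.33 (Ccne1), -0.15 (Cdk2), 0.0026 (Cdk4), -0.19 (Cdk6), -0.10 (Cdkn1b), -0.056 (Rb1), 0.074 (E2f1), -0.31 (Myc), 0.033 (Mcm2), 0.25 (Mcm5), 0.037 (Tyms), -0.19 (Rrm2), 0.18 (Mki67), 0.13 (Cdc20) and 0.10 (Nusap1). With 1 library left out the ranges were -0.31 to 0.029 (Ccne1), -0.19 to 0.13 (Cdk2), -0.068 to 0.26 (Cdk6), -0.00045 to 0.25 (Mcm4), -0.13 to 0.14 (Mcm5), -0.0069 to 0.31 (Mcm6), -0.053 to 0.25 (Mcm7), -0.10 to 0.15 (Mki67), -0.0075 to 0.47 (Myc), -0.30 to 0.11 (Pcna), -0.11 to 0.20 (Rrm2) and -0.13 to 0.074 (Tyms). The cause of these turns was not tested. Depth limits the mitotic genes most, which rest on 163 to 612 counts per library in sum.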
